A study of Mus musculus with 2 samples.

Results

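The 8 genes described here encode the parts of the mouse B cell receptor and proteins that mark the B lineage: Ighm, Ighd, Igkc, Cd79a, Cd79b, Ms4a1, Cd22 and Jchain. They were chosen by symbol, and all 8 were found among the 19294 gene symbols of a Drop-seq table of unique molecular identifier (UMI) counts, in which each UMI stands for 1 captured RNA molecule. The table came from colon crypt cells of C57BL/6 mice, 4 to 10 months old, of the genotype Tcf4GfpCre/+ RosamTmG/+, submitted as 2 pools (samples 1 to 3 and samples 4 to 6). Cre is knocked in at 1 copy of Tcf4 (the Wnt pathway gene Tcf7l2, not the gene that carries the symbol Tcf4 in the table), so every animal carried 1 altered copy, and cells that have never expressed it keep the red membrane reporter (Tcf4 Lin-). Tcf4 Lin- cells and a mixed population with both reporter colours were sorted, and human cells were added for the droplet run. All samples shared this genotype, and no comparison between genotypes was made.

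The authors placed 516 of the 1117 barcodes in 4 clusters, of 190 natural intraepithelial lymphocytes (nIELs), 186 induced intraepithelial lymphocytes (iIELs), 93 Epithelial Pigr+ cells and 47 B cells, and listed 106 cells in 3 epithelial subclusters (32 stem cells, 32 secretory precursors and 42 absorptive precursors). The lists overlap, with 14 cells of the subclusters also placed among the nIELs or iIELs. Barcodes end in X1 (1042) or X2 (75), and no source used here ties these endings to the 2 pools, so all cells were treated as 1 sample without replicates and no difference was tested. Intervals in parentheses are 95% intervals that cover counting error only. The cells of the B cells cluster held 512 to 5244 UMIs (median 1503), 42 of them in X1 and 5 in X2, and X1 and X2 shared 0 barcodes. Because the clusters were made from these same counts, levels by cluster are a description.

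The B cell receptor is a membrane immunoglobulin, made of 2 heavy chains and 2 light chains, that sits with a signalling pair, Cd79a and Cd79b. A B cell that has not switched class carries mu (Ighm) and delta (Ighd) heavy chains, spliced from a shared primary transcript, and as a rule light chains of either the kappa (Igkc) or the lambda (Iglc) class. Ms4a1 encodes the surface protein CD20, Cd22 encodes an inhibitory coreceptor that binds sialic acid, and Jchain encodes the chain that joins secreted IgA or IgM into polymers and is high in plasma cells. Siglech, used here to divide the B cells cluster, encodes a sialic acid binding receptor that marks plasmacytoid dendritic cells of the mouse.

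In the GENCODE M21 annotation of mm10, the heavy chain genes Ighm (chr12:113418558-113422730) and Ighd (chr12:113406604-113416324) lie next to each other on the minus strand, and Igkc is at chr6:70726435-70726966. Cd79a (chr7:24897381-24902197), Cd22 (chr7:30865402-30880342) and Siglech (chr7:55768178-55778925) share a chromosome. The others are Cd79b (chr11:106311341-106314762), Ms4a1 (chr19:11249675-11266241) and Jchain (chr5:88519809-88527891). Promoter sequence from RefSeq was at hand for 3 of the 8 genes, Cd79a, Cd22 and Jchain. The 250 bases before the RefSeq start (GRCm38.p6, 5′ to 3′ on the strand of the gene) are shown for Cd79a (chr7:24897247-24897496, plus strand) and Cd22 (chr7:30879029-30879278, minus strand), the members whose windows held a motif, and for Siglech (chr7:55767934-55768183, plus strand), the gene that divides the B cells cluster. Capitals mark matches, on either strand, to CAAGGGAA (the letters of the known EBF site of the Cd79a promoter), ATTTGCAT (the octamer), CCCNNGGG (an EBF-like palindrome) or GAGGAA (a PU.1-like site).
Cd79a: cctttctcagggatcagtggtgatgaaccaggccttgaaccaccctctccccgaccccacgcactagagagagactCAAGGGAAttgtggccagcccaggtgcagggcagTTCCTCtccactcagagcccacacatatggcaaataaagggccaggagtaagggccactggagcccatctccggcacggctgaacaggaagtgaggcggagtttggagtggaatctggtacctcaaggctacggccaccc
Cd22: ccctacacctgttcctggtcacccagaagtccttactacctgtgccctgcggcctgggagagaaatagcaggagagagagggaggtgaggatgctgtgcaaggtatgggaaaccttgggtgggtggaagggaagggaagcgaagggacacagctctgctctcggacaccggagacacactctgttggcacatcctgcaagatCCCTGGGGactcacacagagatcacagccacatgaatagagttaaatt
Siglech: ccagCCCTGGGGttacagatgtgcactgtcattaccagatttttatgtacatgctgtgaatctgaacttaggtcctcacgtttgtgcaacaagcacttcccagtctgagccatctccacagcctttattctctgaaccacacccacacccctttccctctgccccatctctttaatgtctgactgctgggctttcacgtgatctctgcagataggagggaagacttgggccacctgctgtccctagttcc
The Cd79a window held the first motif and, 34 bases further on, the PU.1-like letters on the other strand. The Cd22 and Siglech windows each held CCCNNGGG, and Jchain held none of the 4 motifs. CAAGGGAA was present in 1.26% of all 32851 promoter windows of this length, the octamer in 1.60%, CCCNNGGG in 11.8% and GAGGAA in 23.3%. A match of letters is not evidence of binding.

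Of the heavy chain genes, Ighm had 78 UMIs in 27 of the 47 cells of the B cells cluster, 63 UMIs in 43 of 190 nIELs, 7 UMIs in 5 iIELs and 1 UMI in the Epithelial Pigr+ cells. As UMIs per 1000000 of the summed UMIs of each cluster (CPM), these were 1017 (804 to 1269), 260 (199 to 332), 24.6 (9.91 to 50.8) and 4.03 (0.102 to 22.4). Ighm was thus the member with a clear presence outside the B cells cluster, and the intervals of the first 3 clusters did not overlap. Ighd had 44 UMIs in 22 cells of the B cells cluster, 574 CPM (417 to 770), against 7 UMIs in 5 nIELs, none in iIELs and 1 in the Epithelial Pigr+ cells.

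Igkc, the kappa light chain constant gene, had 301 UMIs in 34 of 47 cells of the B cells cluster, 3924 CPM (3493 to 4393). It had none in nIELs, 4 UMIs in 3 iIELs and 3 UMIs in 3 Epithelial Pigr+ cells, and the share of cells with a UMI was 72.3% (57.4% to 84.4%) in the B cells cluster against 3.23% (0.670% to 9.14%) in the Epithelial Pigr+ cells, at median depths of 1503 and 1645 UMIs per cell. The source of the few Igkc UMIs outside the B cells cluster was not tested.

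The 2 signalling subunits were found in fewer cells. Cd79a had 19 UMIs in 11 cells of the B cells cluster (248 CPM, 149 to 387) and none in the 469 other assigned cells, which allows a share of cells with a UMI of up to 0.640%. Cd79b had 45 UMIs in 22 cells (587 CPM, 428 to 785) and 6 UMIs in 6 nIELs. Either subunit was seen in 24 of 47 cells and both in 9.

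Ms4a1 had 86 UMIs in 26 cells of the B cells cluster, 1 in an nIEL and 1 in an Epithelial Pigr+ cell. Cd22 had 9 UMIs in 5 cells, 5 of them in a single cell, and 1 UMI in an iIEL. Jchain had 4 UMIs, 2 in each of 2 cells, and none in any other barcode of the table. Cd22 and Jchain were therefore close to the limit of detection at this depth.

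**Figure D1:**
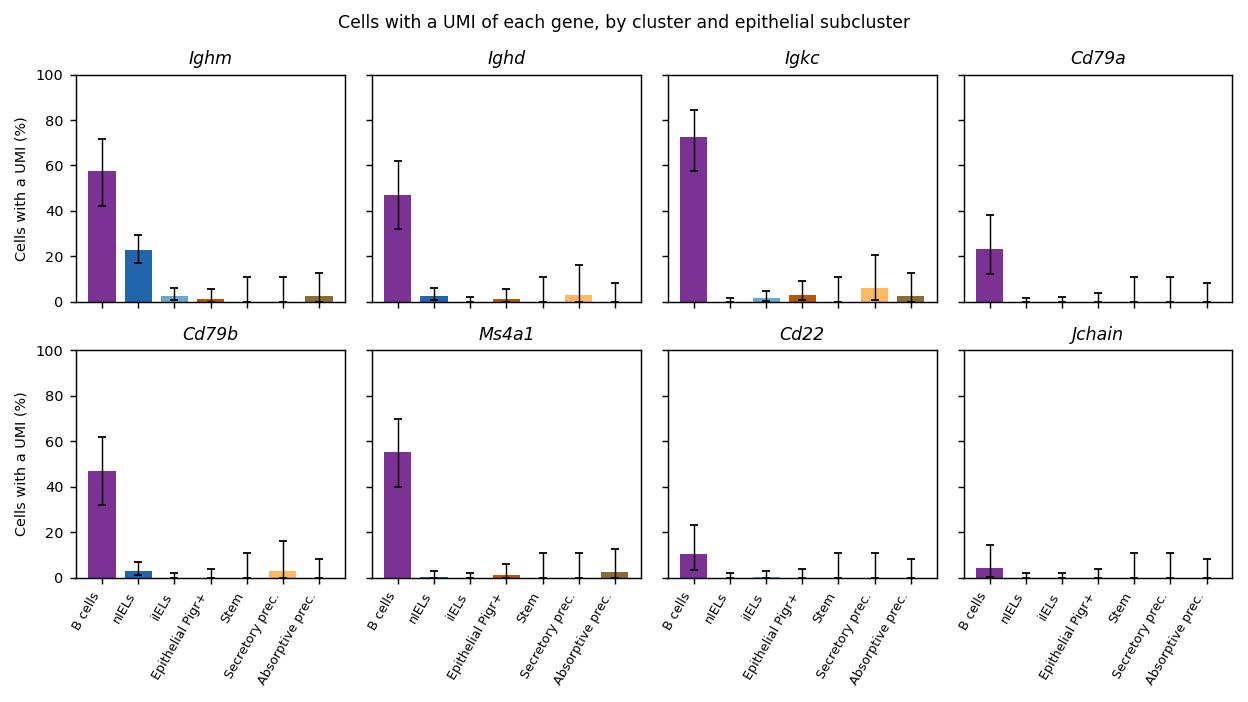
Share of cells with at least 1 UMI (y axis, %) of each of the 8 genes in the 4 clusters and 3 epithelial subclusters (x axis). Bars give the share and error bars the exact 95% binomial interval. The B cells cluster is highest for every gene, and Ighm in nIELs, at 22.6%, is the only other bar above 10%.

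In the 3 epithelial subclusters the members were at or near 0. The stem cells held no UMI of any member, which with 32 cells allows a share of up to 9.38% for each. The secretory precursors held 1 UMI of Cd79b, 1 of Ighd and 2 of Igkc, and the absorptive precursors 1 each of Ms4a1, Igkc and Ighm. The Cd79b UMI lay in a cell also listed as an nIEL and is among the 6 given above. For each member the intervals of all subclusters overlapped, so no order among them could be read.

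Against the other 469 assigned cells, Igkc was 435-fold higher in the B cells cluster (208 to 1090), Ighd 55.6-fold (25.9 to 137), Cd22 90.9-fold (12.6 to 3986) and Ighm 11.1-fold (7.95 to 15.5), the smallest of these. For Jchain, the bound taken at 3 UMIs over the other cells was 13.5-fold, and the exact binomial lower limit was 6.67-fold. Of the 8 members, 5 had the 20 UMIs asked of a gene over the assigned cells (Cd79a with 19, Cd22 and Jchain did not), and all 5 were at least 4-fold higher. Among all 6173 genes that passed the same minimum, 1.78% were. The cluster was drawn with these genes, so nothing is read from that count. The medians were 75.8-fold over the 5 members and 0.962-fold over all genes.

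Per cell, the members overlapped widely. Of the 47 cells, 39 held a UMI of at least 1 member, 31 of at least 3 and 17 of at least 5, and the most was 6 members, in 2 cells. The remaining 8 cells held none. Of 12 B cell markers (the members other than Jchain, with Pax5, Ebf1, Fcer2a, Cr2 and Tnfrsf13c), all were detected in the cluster, and 34 cells held 3 or more of them, against 0 of 190 nIELs, 1 of 186 iIELs and 0 of 93 Epithelial Pigr+ cells. The cluster was drawn from these same counts, so this describes its cells and is no separate support for the label B cells. At least 1 of the markers was seen in 40 of its 47 cells, and the other 7 held none.

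**Figure D2:**
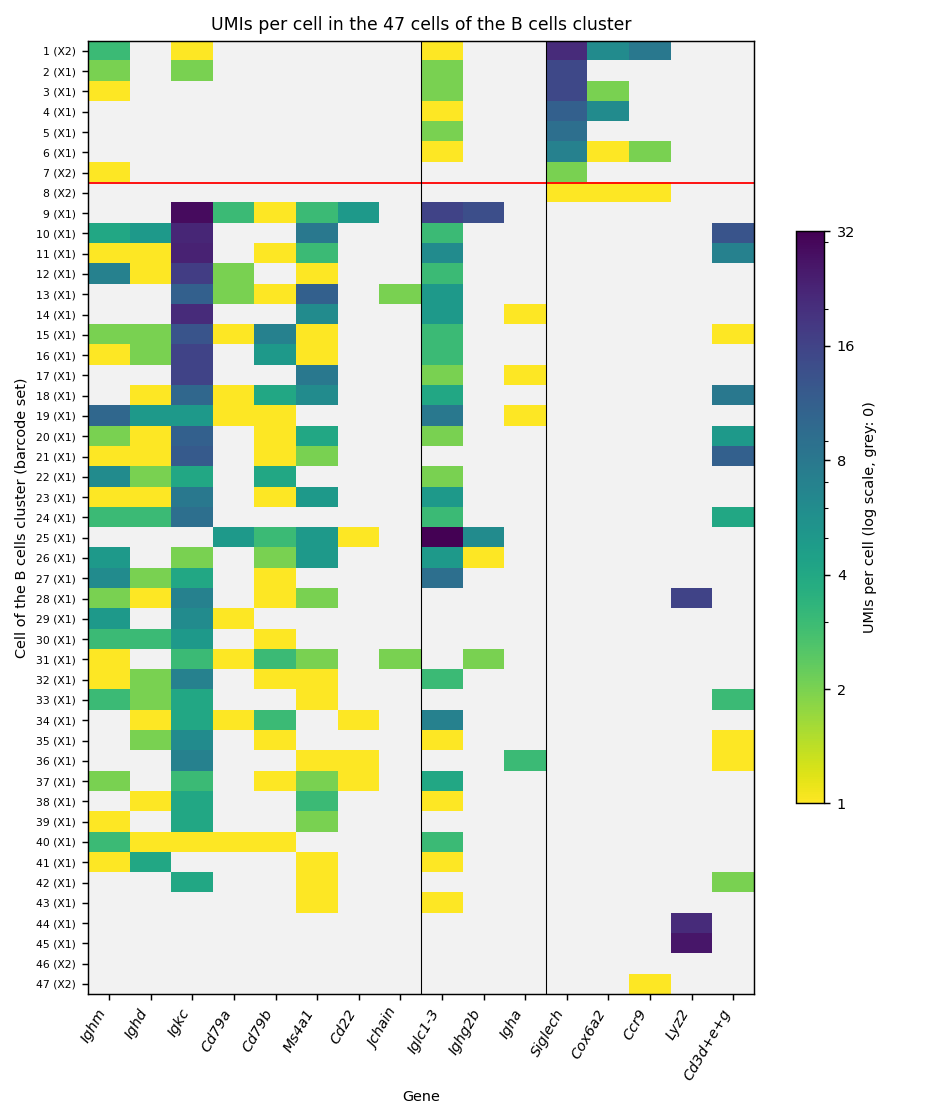
UMIs per cell (colour, log scale, grey for 0) of the members, other immunoglobulin genes and genes of other cell types (x axis) in the 47 cells of the B cells cluster (y axis, with barcode set). The red line divides the 7 cells with 2 or more Siglech UMIs, above it, from the other 40: only Ighm and Igkc of the 8 members have UMIs above the line.

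Most cells with Ighd also held Ighm. Both were seen in 18 cells, Ighm without Ighd in 9 and Ighd without Ighm in 4. Constant genes of switched classes (Igha and the Ighg genes) were seen in 9 cells, and 6 of these had no UMI of Ighm or Ighd. Ighg2b had 23 UMIs in 4 cells, 14 of them in a cell of 5228 UMIs with 29 Igkc UMIs and 6 in a cell of 2003 UMIs. Igha, the IgA constant gene, had 6 UMIs in 4 cells, 3 of them in 1 cell, and 3 UMIs in 3 cells outside the cluster. The 6 cells without Ighm and Ighd held 1184 to 5228 UMIs (median 1691.5), beside a median of 1548 in the 27 cells with Ighm. The Ighg genes are close copies, and the reads could have been split among them.

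Light chains of both classes were often found in the same cell. Igkc UMIs were present in 34 cells and UMIs of Iglc1, Iglc2 or Iglc3, summed, in 32. Both classes were seen in 25 cells, kappa alone in 9, lambda alone in 7 and neither in 6, and 21 cells had at least 2 UMIs of each class. Kappa made up 301 of 447 light chain UMIs, or 67.3% (62.8% to 71.7%). Where both were present, kappa was ahead in 17 cells, lambda in 6, and 2 had equal counts. The clearest lambda cell held 21 Iglc1 and 11 Iglc2 UMIs and no Igkc UMI, with 5 Cd79a, 3 Cd79b, 5 Ms4a1 and 6 Ighg2b UMIs. No Iglc UMI was found in the 469 other assigned cells. Iglc2 and Iglc3 transcripts were 95.1% identical over 451 aligned bases and Iglc1 was 75.1% identical to Iglc3 over 313, so Iglc2 and Iglc3 counts are uncertain against each other. With each cell thinned to 700 UMIs (42 cells, 100 draws), both classes remained in 17.25 cells on average. Reads of constant genes do not show which variable gene, if any, was joined to them.

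**Figure D3:**
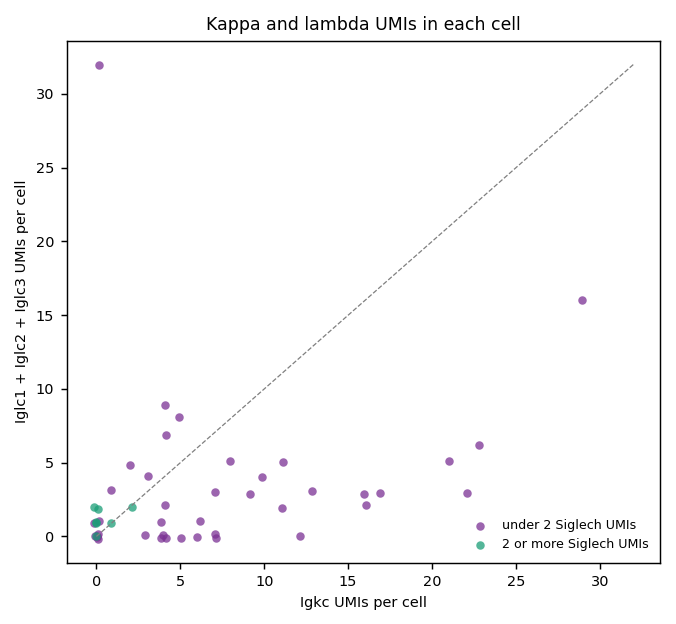
Igkc UMIs (x axis) and summed Iglc1 to Iglc3 UMIs (y axis) in each of the 47 cells of the B cells cluster, with points shifted slightly so that they do not hide each other and a dashed line of equal counts. Most cells lie below the line, 1 cell has 32 lambda and 0 kappa UMIs, and the 7 Siglech cells lie at 2 or fewer of each.

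The genes whose pattern of detection was most like each member, by the Jaccard index (cells with both over cells with either, 516 cells), came mostly from the lambda constant genes, class II presentation and the B lineage lists. For Igkc they were H2-Aa (0.508), H2-Ab1 (0.467) and Iglc3 (0.467). For Ighd they were Iglc2 (0.382), Tnfrsf13c (0.371) and Iglc3 (0.350), and for Cd79a Iglc2 (0.429), the B lineage factor Pax5 (0.400) and H2-Ob (0.389). For Cd79b they included Iglc2 (0.516) and Iglc1 (0.367), and for Ms4a1 they were Tnfrsf13c (0.548), the receptor for the survival factor BAFF, H2-Aa (0.431) and Iglc2 (0.424). For Ighm the index was lower, with H2-Aa at 0.260, H2-Ab1 at 0.248 and H2-DMb2 at 0.230, and 49 of its 76 cells lay outside the B cells cluster. Cd22 was most like Fcmr (0.308), H2-Ob (0.250) and Mzb1 (0.214), and Jchain, with 2 cells, like Nfkb2 (0.154), Ehd3 (0.143) and Pax5 (0.118). All points of these comparisons share the same libraries, and deeper cells hold more genes.

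Genes that act around the receptor were seen as well. Of 17 measured genes of B cell receptor signalling, 12 had the 20 UMIs asked (median 2.34-fold, beside 0.962-fold over all genes). Of the 12, 5 were at least 4-fold higher in the B cells cluster, beside 1.78% of all genes. These were the coreceptor gene Cr2 (19 UMIs against 1), the adaptors Blnk (8.18-fold, 4.05 to 16.3) and Bank1 (24.3-fold, 11.2 to 56.8), and the kinases Lyn (5.35-fold, 2.10 to 12.7) and Prkcb (5.05-fold, 2.0 to 11.8). All but Blnk reached the 20 UMIs asked only with those of the cluster, which was drawn with these genes. Nothing is therefore read from that count. The kinases Btk (10 UMIs) and Blk (9 UMIs) had too few UMIs for the count and none outside the cluster. Of 5 genes of receptor inhibition that passed, Cd72 was past 4-fold (4.8-fold, 2.63 to 8.48), and Ptpn6, the phosphatase that inhibitory coreceptors recruit, was at 2.72-fold (1.73 to 4.16). Fcgr2b (9 UMIs), Siglecg (10) and Dok3 (12) were seen in the B cells cluster alone but under the minimum. Cd5, a marker of B-1a and T cells, had 31 UMIs outside the cluster and none in it.

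Of 8 B lineage surface genes that passed, 6 were at least 4-fold higher, beside 1.78% of all genes, among them Tnfrsf13c (32 UMIs against 1) and Ly6d (87 against 1). Of 11 transcription factors, 6 were: Pax5 (87.6-fold, 26.8 to 452), Ebf1 (6.06-fold, 3.18 to 11.2), Pou2f2, Bcl11a, Irf8 and Mef2c. All 6 tested genes of class II presentation were past 4-fold. As for the members, the cluster was drawn with these genes, and nothing is read from these counts. Of 5 tested plasma cell genes, 1 was, Mzb1 (24 UMIs against 0). Of the other plasma cell genes measured, Igha (6 UMIs), Xbp1 (5), Txndc5 (4) and Prdm1 (2) had UMIs in the B cells cluster, and Sdc1 and Fkbp11 had none there against 24 and 53 in the other cells. Irf4 and Derl3 had 1 UMI each in all assigned cells. The 2 cells with Jchain both held Pax5 (4 and 2 UMIs), Igkc (11 and 3) and Ms4a1 (11 and 2).

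The Siglech division separated the members further. Over the assigned cells Siglech had 81 UMIs, all in 8 cells of the B cells cluster, and 7 cells with 2 or more (21, 15, 15, 11, 9, 7 and 2 UMIs) were set against the other 40. Just inside the threshold was an X2 cell of 513 UMIs with 2 Siglech UMIs, and just outside it an X2 cell of 2338 UMIs with 1. Ighm UMIs in the 7 cells were 3, 2, 1, 0, 0, 0 and 1, in the same order, and Igkc UMIs were 1, 2, 0, 0, 0, 0 and 0. The other 6 members had no UMI in these 7 cells, against 207 UMIs of the 6 in the 40 cells, of which 35 held at least 1. The share of cells with 3 or more B cell markers was 0 of 7 and 34 of 40.

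Ighm had UMIs on both sides, at 760 CPM (306 to 1566) in the 7 cells and 1052 CPM (821 to 1327) in the 40, a ratio of 1.38 (0.638 to 3.57). The ratio moved with the barcode set: in X1 alone Ighm was at 440 CPM in 5 Siglech cells (3 UMIs) and 1108 CPM in the other 37, a ratio of 2.52 (0.828 to 12.5), while in X2 the 2 Siglech cells held 4 UMIs and the other 3 cells none. Igkc was 13.6-fold higher in the 40 cells (4.59 to 66.1), at 4415 CPM against 326 CPM. For members at 0 in the 7 cells, the fold is a bound taken at 3 UMIs in those cells. These bounds, for the 40 cells over the 7, were 3.91 for Ms4a1, 2.05 for Cd79b and 2.002 for Ighd. The exact binomial lower limits were 3.11, 1.60 and 1.56, so Cd79b and Ighd were not shown to be 2-fold higher. Without the cell with most UMIs of each, the 3-UMI bounds of Cd79b and Ighd were 1.78 and 1.92. In X1 alone these 3-UMI bounds were 1.60 and 1.56. With 9212 UMIs in the 7 cells against 67501 in the 40, Cd79a, Cd22 and Jchain could not be placed on either side. Of the 6 members with the 10 UMIs asked over the cluster, 4 were at least 2-fold higher in the 40 cells by the ratio or the 3-UMI bound, and none lower. Among all 1319 such genes 13.0% were higher and 14.9% lower. Of the 6, Cd79a, Cd79b, Ms4a1 and Ighd reached the minimum through the 40 cells alone, so nothing is read from that count. Thinned to 700 UMIs (6 and 36 cells), the shares of cells with a UMI were 15.3% and 84.2% for Igkc, 31.3% and 47.1% for Ighm, 0 and 48.6% for Ms4a1, 0 and 38.4% for Cd79b and 0 and 37.9% for Ighd.

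**Figure D4:**
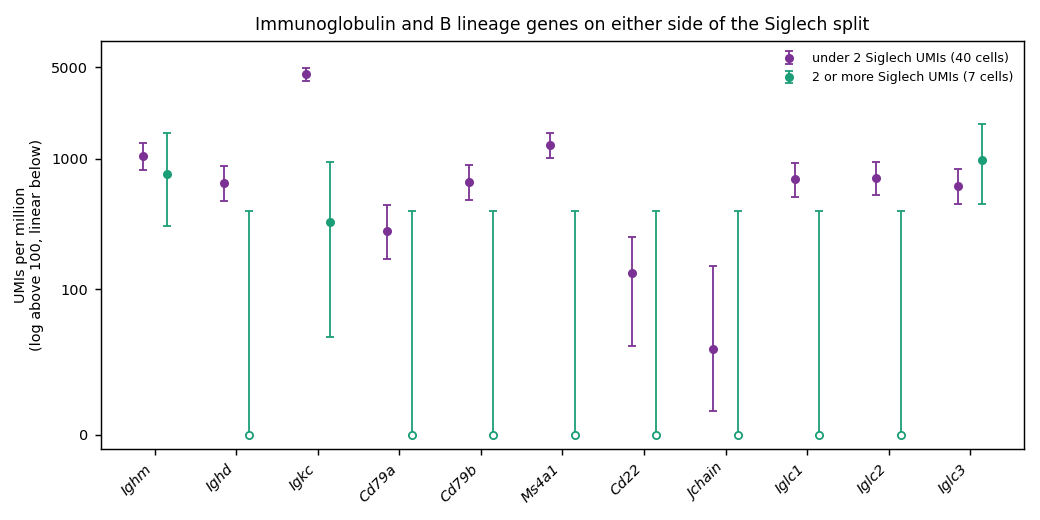
UMIs per 1000000 (y axis, logarithmic above 100 and linear below) of the 8 members and the 3 lambda constant genes (x axis) in B cells cluster cells with under 2 and with 2 or more Siglech UMIs. Error bars are exact 95% Poisson intervals and open circles mark 0 UMIs: Ighm and Iglc3 have overlapping intervals, and Igkc and Ms4a1 do not overlap.

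The lambda genes divided in their own way. Iglc3 had 9 UMIs in 6 of the 7 Siglech cells, 1 or 2 in each, and Iglc1 and Iglc2 had none, so all 9 lambda UMIs (100%, 66.4% to 100%) were Iglc3. In the 40 cells Iglc3 was 42 of 137 lambda UMIs (30.7%, 23.1% to 39.1%). Iglc2 and Iglc3 counts are uncertain against each other, as given above, so these shares are uncertain too. The level of Iglc3 was 977 CPM in the 7 cells and 622 CPM in the 40, a ratio of 0.637 for the 40 over the 7 (0.306 to 1.49), while Iglc1 and Iglc2, with 47 and 48 UMIs in the 40 cells, had bounds of 2.14-fold and 2.18-fold. Of the 47 Iglc1 UMIs, 21 lay in 1 cell, and without the cell with the most UMIs of each, a check chosen after seeing the data, the bounds were 1.22 and 1.73.

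Genes of plasmacytoid dendritic cells were found in the 7 cells. Apart from Siglech, which chose the cells, 7 of 7 listed genes with enough UMIs were at least 2-fold higher in them, beside 14.9% of all genes. Klk1 had no UMI in the 40 cells, and Cox6a2, Ccr9, Lair1 and Bst2 reached the 10 UMIs asked only with those of the 7. Nothing is therefore read from that count. Cox6a2 had 15 UMIs against 1 (110-fold, 16.9 to 4627), Ccr9 10 against 2 (36.6-fold, 7.81 to 344) and Bst2 16 against 8 (14.7-fold, 5.92 to 39.6). Klk1 had 12 against 0, but 935 UMIs in the other clusters. Of the 10 Ccr9 UMIs, 8 lay in 1 cell. A cell with 15 Siglech UMIs held none of Klk1, Cox6a2, Ccr9 or Bst2. The summed level of the 11 listed genes other than Siglech was 2569 to 19190 CPM per cell in the 7 cells (median 9552) and 0 to 7812.5 in the 40 (median 191), so the ranges overlapped. Some genes of the B lineage lists were higher in the 7 cells too: Ly6d (40 UMIs against 47, 6.24-fold, 3.99 to 9.71), Irf8 (6.78-fold, 3.78 to 12.1) and Bcl11a (7.79-fold, 3.70 to 16.5). Pax5, with 26 UMIs in the 40 cells, had none in the 7. Of 7 class II genes tested, 5 were at least 2-fold higher in the 40 cells, beside 13.0% of all genes. Cd74 was at 2.48-fold (1.86 to 3.38) and H2-Eb1 at 2.85-fold (1.52 to 6.04). The intervals of the others, H2-DMa, H2-DMb2 and H2-Ob, included 1. These genes reached the 10 UMIs asked only with those of the 40 cells, so nothing is read from the class II count.

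Of the 8 cells with no member UMI, 3 were Siglech cells of 874 to 1361 UMIs. Of the other 5, 2 X1 cells of 3710 and 1757 UMIs held 21 and 26 UMIs of Lyz2, a lysozyme gene of macrophages and related cells. The 3 X2 cells, of 2338, 581 and 512 UMIs, held 6, 2 and 2 UMIs of Cd209d, and the class II chaperone Cd74 was in all 5 at 12 to 130 UMIs. Another cell with Lyz2 (16 UMIs, 825 UMIs in all) held 5 of the 8 members. Among the 5 X2 cells of the cluster the members had 4 Ighm UMIs and 1 Igkc UMI, all in Siglech cells, so the other 6 members came from X1 alone. The X2 cells of 513 UMIs, a Siglech cell, and of 512 UMIs had barcodes that differ at 1 base from that of the 581-UMI cell. With barcodes related in this way joined, the cluster had 45 cells and 6 had no member UMI. Whether such barcodes were the same cell was not tested. Summed over the 11 measured genes of conventional dendritic cells and macrophages, the level was 5844 CPM in the 5 cells with no member UMI and under 2 Siglech UMIs and 307 CPM in the 35 with a member UMI and under 2 Siglech UMIs. Lyz2 made up 47 of the 52 UMIs in the former, in 2 cells, and 16 of the 18 in the latter, in 1 cell. In all 5 and 3 of the 11 genes were detected, with C1qa, C1qb, C1qc and Adgre1 at 0 in both. The 12 listed plasmacytoid dendritic cell genes, which include Siglech and Cd209d, summed to 3259 CPM in the former (29 UMIs in 4 cells). In the latter they summed to 427 CPM (25 UMIs in 16 cells), and 8 and 5 of the 12 were detected. The part of such cells, and of X2, in the absence of the members was not tested.

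T cell genes were present in part of the cluster. The summed level of the 10 listed T cell genes was 0 to 12871 CPM per cell in the B cells cluster, with a median of 0, against a median of 10621 CPM in nIELs and 9124 CPM in iIELs. In 8 cells there were 2 to 13 UMIs of Cd3d, Cd3e and Cd3g together. All 8 held member UMIs, and their median depth was 2397 UMIs against 1361 in the other 39. Igkc was at 4732 CPM in the 8 cells and 3637 CPM in the others, and Ms4a1 at 1245 and 1077 CPM. Without the 8 cells, 20 cells held both light chain classes and the 5 members past 4-fold stayed at 5. No doublet caller was run, and the part of droplets with more than 1 cell in these values was not tested.

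Ighm in nIELs had a different makeup from the cluster. Of 43 nIELs with Ighm, 30 had 1 UMI and 13 had 2 or more, with up to 6. Ighm was 100% (94.3% to 100%) of the 63 UMIs of Ighm and Igkc in nIELs and 20.6% (16.6% to 25.0%) of the 379 in the B cells cluster. The share of nIELs with Ighm was 22.6% (15.5% thinned to 700 UMIs) against 2.69% in iIELs (1.42% thinned) and 1.08% in the Epithelial Pigr+ cells (0.125% thinned). It was 20.8% of 173 X1 and 41.2% of 17 X2 nIELs.

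The nIELs with Ighm carried T cell genes and no other B lineage set. None of the 43 held Igkc, Cd79a, Ms4a1, Cd22, Jchain, Pax5 or Cd74, which allows a share of up to 6.98% for each, and 1 held Cd79b and 1 Ighd. In a comparison chosen after the values were seen, Trbc2, a T cell receptor constant gene, was in 90.7% (77.9% to 97.4%) of the 43 and in 66.0% (57.7% to 73.6%) of the other 147 nIELs, 73.7% and 54.2% when thinned, but its CPM of 1685 and 1504 differed less. Cd8a was in 14.0% (5.30% to 27.9%) and 36.1% (28.3% to 44.4%), or 10.2% and 27.4% thinned, at 150 and 531 CPM. Cd3e (62.8% and 61.2%), Trac (53.5% and 53.7%) and Tyrobp (37.2% and 36.7%) were close in share, with overlapping intervals. The median depths were 1274 and 1131 UMIs, and a cell chosen for holding a UMI is on average a deeper cell.

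**Figure D5:**
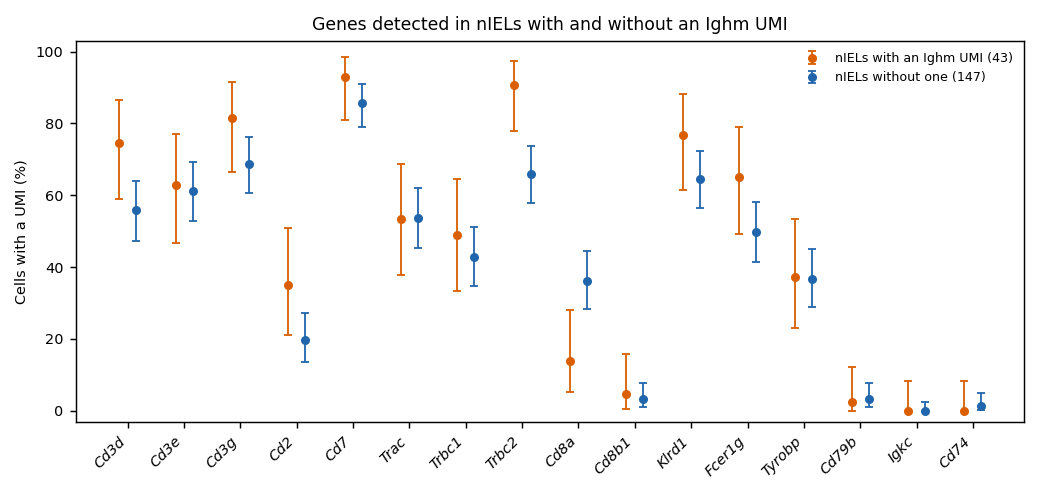
Share of nIELs with a UMI (y axis, %) of T cell genes, genes of natural IELs and B lineage genes (x axis), in the 43 nIELs with an Ighm UMI and the 147 without. Error bars are exact 95% binomial intervals: those of Trbc2 and Cd8a do not overlap, and Igkc is at 0 in both.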

How the data were processed

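The deposited table holds counts, whole numbers of UMIs per gene and barcode, with no normalization by the authors, who took it from the Drop-seq pipeline. STAR 2.5.0 and Picard 1.137 appear in the submitters' processing notes, as do mm10 and hg19. Whether reads that fit several genes were dropped is not given in the sources used here. Clusters were taken from the authors' supplementary cell lists. For a level, the UMIs of a gene in a group were divided by all UMIs of the group and multiplied by 1000000, with exact Poisson intervals. Shares have exact Clopper-Pearson intervals, and folds exact binomial intervals on the UMIs. A count of 0 was given a limit of 3 counts, and a fold bound taken at it is not the limit of an exact 95% interval. PCR duplicates are removed by UMIs, so intervals cover counting error only, and cells of 1 sample are not replicates. Gene minimums were 20 UMIs (assigned cells, 4-fold) and 10 UMIs (B cells cluster, 2-fold). Depth comparisons used thinning to 700 UMIs (100 draws). No doublet caller was run. Genes named beside the members are those of the lists, the 3 most alike per member in at least 10 cells, and the 10 with the largest fold each way across the Siglech division at 20 UMIs. Of the 19294 symbols, 18604 are in GENCODE M21. The members and lists were chosen with earlier results of these data known, and 1 gene of the lists is not reported here. On simulated data, the intervals of the B cells cluster comparison (6173 genes) held for 97.5% of unchanged genes and those of the Siglech comparison (1319 genes) for 98.1%. The simulated counts were summed Poisson draws, the model that the intervals assume. They check the calculation only and leave out the clumping of UMIs in single cells. Upper bounds for genes at 0 in the B cells cluster held for 83.0% of 259 unchanged genes and are not printed. Lower bounds of the Siglech comparison held for 95.0% of 141, and the simulation of the B cells cluster comparison gave no lower bound. Python 3.11.15, numpy 2.4.6, pandas 2.3.3, scipy 1.17.1 and matplotlib 3.10.9 were used.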

Additional observations from a re-analysis of the deposited data

Results flagged for a closer look

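Member UMIs were present in the 601 barcodes that the authors' cell lists leave out, above the 3 UMIs that a count of 0 allows. They held 17 UMIs of Igkc, 12 of Ms4a1, 11 of Ighm and 6 of Ighd, with 51 member UMIs in 15 barcodes. Of these, 41 UMIs lay in 8 barcodes with 3 or more, whose depth was 160 to 416 UMIs, below the 504 of the shallowest cell in a cluster. Siglech had 5 UMIs in 2 of the 601 barcodes, with 4 as the most in 1 barcode. None of the 601 entered a comparison.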

How the results depend on the processing

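No paired analysis was possible because the barcodes could not be tied to the 2 pools. Each count was recomputed under the alternatives. In X1 alone, 5 cells had no member UMI, against 8 in all. In X2 alone, 3 cells had none and 1 cell had both light chain classes. No member reached the 20 or 10 UMIs asked there, so the counts of members past 4-fold and 2-fold could only be 0. Ighm, with 4 UMIs in the X2 cells of the cluster, was 6.999-fold higher there than in the other assigned X2 cells. The count of members at least 2-fold higher with under 2 Siglech UMIs, by the ratio or the 3-UMI bound, was 4 in all. It was 2 without the cell with the most UMIs of the member and 2 when Siglech cells were those with 3 or more UMIs. The other 23 of 30 recomputed counts stayed within 1.5 times, and of 256 recomputed values of single members 223 stayed within the 95% counting interval of the reported value and no called fold changed direction. Folds that could not be computed, among them those of every member but Ighm in X2 alone, are not among the 256. Where each cell's own CPM was averaged instead, folds with 0 UMIs on 1 side kept their 3-UMI bound and could not move. The alternative without the 5 cells that had no member UMI and under 2 Siglech UMIs was chosen after seeing the data and left the counts of members at 5 and 4. Depth limits Cd22 and Jchain throughout, and every member in the 7 Siglech cells, where a count of 0 allows up to 326 CPM (3 UMIs).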

Other observations

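Across the Siglech division, the genes of at least 20 UMIs with the largest folds toward the 7 Siglech cells were Ly6c2 (19 UMIs against 4, 34.8-fold, 11.6 to 141), the cyclin gene Ccnd1 (15 against 5, 21.98-fold, 7.59 to 77.3), Bst2, Ctsb, Abcf1, Cd8b1, Ubxn4, Bcl11a, Cd209d and Plac8 (35 against 37, 6.93-fold, 4.24 to 11.3). Cd8b1, a T cell coreceptor gene, had 13 UMIs in 5 of the 7 cells and 12 in 5 of the 40. Of the other 9 T cell genes listed, Cd7 (8 UMIs), Cd8a (4) and Trbc1 (1) had UMIs in the 7 and the other 6 had none, and the summed level of all 10 was 2822 CPM in the 7 cells and 2785 CPM in the 40. Toward the 40 cells, Igkc came first, followed by Apoe (49 UMIs against 1, 6.69-fold, 1.15 to 269), Ndufa3, Filip1l, Gm14336, Rps6-ps4, Kmt2a, Rps6, Cyba and Hnrnpa2b1, each with 1 or 2 UMIs in the 7 cells. The intervals of Gm14336, Rps6-ps4, Kmt2a and Cyba included 1. Genes with 0 UMIs in the 7 cells enter this order only by their bound.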
